A study of Homo sapiens with 4 samples.

Results

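Lactate dehydrogenase and the proteins that move pyruvate into or away from the mitochondrion were followed in 10 genes, LDHA, LDHB, MPC1, MPC2, PDHA1, PDHB, DLAT, PDK1, SLC16A1 and SLC16A3, of the 60564 genes listed in the counts. LDHB was picked for its fall in 3-D grown cells, and the other 9 genes were added as its neighbors in the pathway. Every value of LDHB between the conditions is therefore a description without a test. All 10 genes passed the filter on low counts that left 22555 genes for testing.

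RNA was sequenced from Elf1 cells, a human ESC line that the study describes as naïve and that derives from a single embryo, so all values belong to 1 genotype. The 2-D grown cells adhered to plates coated with Matrigel, a basement membrane extract. The 3-D grown cells had been seeded as single cells into self-assembling scaffolds of 8-arm polyethylene glycol, PEG-8-SH bearing thiol ends joined to PEG-8-Acr bearing acrylate ends, and had grown there for 21 days. Both conditions shared the ESC expansion medium. By the study's methods it contains sodium pyruvate and is supplemented with FGF2, LIF, CHIR99021 and PD03296501. No altered gene is named for either condition, and each had 2 libraries from independent biological replicates. The study passaged 2-D grown cells every few days and reports slower growth in 3-D. Time without passage and growth rate therefore differed together with the scaffold and cannot be told apart from it. The methods also describe routine growth on mouse feeder cells, and which substrate preceded RNA collection rests on the labels.

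Glycolysis ends in pyruvate, which has several fates. Lactate dehydrogenase, a tetramer of LDHA (M) and LDHB (H) subunits, interconverts pyruvate and lactate, and tetramers rich in LDHA are known to favor lactate formation while those rich in LDHB favor lactate oxidation. The carriers MCT1 (SLC16A1) and MCT4 (SLC16A3) pass lactate across the plasma membrane, the MPC1 and MPC2 heterodimer passes pyruvate into mitochondria, and the pyruvate dehydrogenase complex turns it into acetyl-CoA unless a kinase such as PDK1 shuts the complex off. Pluripotent cells are known for strong glycolysis, and naïve cells for using oxidative metabolism beside it.

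The upstream sequences of 2 subunit pairs are shown because the genes of each pair differed in how they moved between the conditions, LDHA against LDHB and PDHA1 against PDHB. They are RefSeq promoter sequences on hg38, written 5′ to 3′ on the strand of the gene. Each comes from a 200-base window that ends 51 bases before the annotated start. Capitals mark ACGTG or GCGTG, the core that hypoxia-inducible factor binds, on either strand, with overlapping matches merged. The LDHB sequence is limited to the 121 bases farthest from the start, because the rest of its 200-base window overlaps an annotated exon. Unlike the other sequences, it therefore ends farther than 51 bases from the start.
LDHA, chr11:18394313-18394512, plus strand: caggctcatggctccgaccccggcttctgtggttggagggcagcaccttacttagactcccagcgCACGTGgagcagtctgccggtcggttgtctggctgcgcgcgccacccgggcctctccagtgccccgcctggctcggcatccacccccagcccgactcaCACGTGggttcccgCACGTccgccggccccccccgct
LDHB, chr12:21657972-21658092, minus strand: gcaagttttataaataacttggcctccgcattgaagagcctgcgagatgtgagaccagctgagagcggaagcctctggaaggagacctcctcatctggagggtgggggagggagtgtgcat
PDHA1, chrX:19343677-19343876, plus strand: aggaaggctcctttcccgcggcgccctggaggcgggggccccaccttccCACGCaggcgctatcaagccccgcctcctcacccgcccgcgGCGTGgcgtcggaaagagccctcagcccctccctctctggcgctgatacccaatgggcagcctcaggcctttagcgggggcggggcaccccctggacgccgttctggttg
PDHB, chr3:58433883-58434082, minus strand: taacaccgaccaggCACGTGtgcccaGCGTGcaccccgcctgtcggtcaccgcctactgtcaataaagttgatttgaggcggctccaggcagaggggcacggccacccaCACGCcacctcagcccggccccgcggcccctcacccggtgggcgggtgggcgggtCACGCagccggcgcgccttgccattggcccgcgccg
The LDHA window shown held 3 merged matches and 19 CpG dinucleotides, whereas the full 200-base LDHB window held 0 matches and 7 CpG. A second listed LDHA promoter, at chr11:18396101-18396300, held 1 match and 22 CpG. PDHA1 held 2 matches and 18 CpG, and PDHB held 4 matches and 22 CpG. Among 34943 RefSeq promoters of the same length, 35.8% held a match and 11.0% held at least 2, with a median of 8 CpG. Of the 9 genes found in the promoter table, 6 held a match in at least 1 listed promoter, and SLC16A1 was not in the table. This count is per gene, and some genes have several listed promoters, SLC16A3 as many as 5. The 35.8% is per promoter, so it is not a background for the count of genes. A match describes letters in a window and was not tested for binding.

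Counts per library summed to 33833778 and 30114220 in 2-D and to 21154409 and 18276147 in 3-D grown cells. Of all tested genes, 1782 had an adjusted p below 0.05 (edgeR quasi-likelihood test, Benjamini-Hochberg), 1024 of them higher and 758 lower in 3-D, and scaling by library size alone turned this split into 514 higher and 1879 lower. Mitochondrially encoded genes held 5.30% and 5.10% of the counts in 2-D against 8.50% and 8.33% in 3-D, and 12 of their 13 protein genes passed the test as higher, with a median log2 fold change of 0.76. Core pluripotency genes POU5F1, NANOG and SOX2 were expressed in every library, with log2 fold changes of 0.04, 0.08 and 0.14 and adjusted p of 0.764, 0.173 and 0.153 by edgeR. Of the naïve markers, TFCP2L1 stood between 22.1 and 23.8 CPM, DNMT3L between 14.6 and 17.9 CPM, KLF4 between 9.26 and 10.4 CPM and DPPA3 between 5.75 and 7.43 CPM, while KLF17 reached at most 1.07 CPM and DPPA5 at most 0.13 CPM. Of 7 fibroblast markers, 3 of 5 tested were higher in 3-D (COL1A1, COL3A1 and POSTN), and DCN and LUM stayed below 1 CPM in each library. The summed level of all 7 was 465 and 458 CPM in 2-D and 467 and 512 CPM in 3-D. Most of this sum was COL1A2, which did not pass, at 325 and 316 CPM in 2-D and 301 and 325 CPM in 3-D. Of 5 primed markers, 2 were higher in 3-D (SFRP2 and THY1). The summed level of all 5 ranged from 1080 to 1100 CPM in 2-D and from 1100 to 1130 CPM in 3-D. Most of it was CD24, which did not pass, at 887 and 906 CPM in 2-D and 868 and 895 CPM in 3-D. The part of these shifts in the results that follow was not tested.

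Among the 10 genes, LDHB stood lower in 3-D grown cells, PDHA1 rose slightly, and the other 8 did not pass the test. At an unadjusted p below 0.05 stood 4 of the 9 genes other than LDHB, namely LDHA, SLC16A1, SLC16A3 and PDHA1. The highest p of these 4, that of LDHA at 0.0454 by edgeR's quasi-likelihood test, ranked only 4608 among the 22555 tested genes. At least 4608 tested genes therefore stood below this unadjusted threshold. The later counts at an unadjusted p below 0.05 have the same background. Of the 9 genes that were not picked on their own change, 1 passed, against 7.90% of all tested genes called in either direction, 4.54% called higher and 3.36% called lower. The 2 libraries of 3-D lay wholly above or below those of 2-D for 7 of the 10 genes, against 50.5% of all tested genes. LDHB is among these 7 because it was picked for its fall. The median log2 fold change was 0.053 over the 10 genes and 0.065 without LDHB, against -1e-04 over all tested genes. All of these are bulk measurements, in which fewer cells that express a gene and less RNA per cell cannot be told apart. Levels are CPM, counts scaled by the TMM-adjusted library size, and fold changes are 3-D over 2-D.

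**Figure D1:**
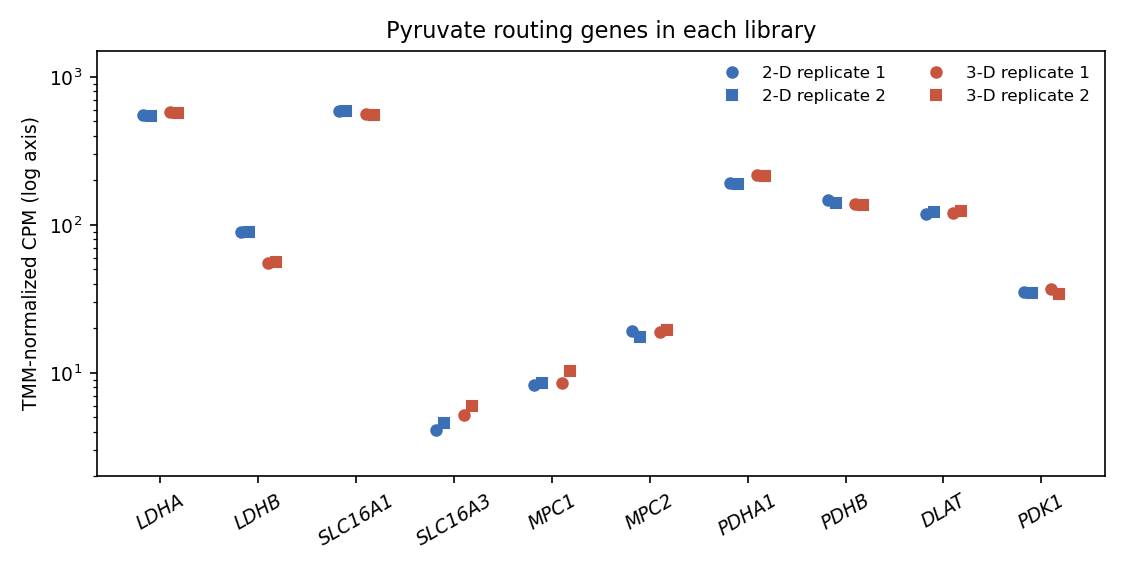
TMM-normalized CPM of the 10 genes in each of the 4 libraries, on a log axis, with 2-D in blue and 3-D in red. LDHB falls from 89.8 and 90.1 to 55.5 and 55.8 CPM, while the other 9 genes change less on this axis. SLC16A3 changes most among these 9, from 4.12 and 4.61 to 5.21 and 5.97 CPM.

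LDHB (ENSG00000111716.13, chr12:21635342-21757857, minus strand, GENCODE release 44 on hg38) encodes the H subunit. Its level was 89.8 and 90.1 CPM in the 2-D libraries and 55.5 and 55.8 CPM in the 3-D libraries. Both 3-D libraries lay far below both 2-D libraries, and the replicates of a condition differed by less than 1 CPM. The level was 38.1% lower in 3-D, a fold of 0.62, with a log2 fold change of -0.69 (SE 0.036, 95% interval -0.77 to -0.61). The raw counts behind it were 3091 and 2775 in 2-D and 1140 and 1001 in 3-D. Among the 758 genes called lower in 3-D, 109 had a larger fall, most of them weakly expressed or not protein-coding, since only 1 protein-coding gene with a mean of at least 10 CPM was among them. Over the 10 alternative fits the log2 fold change of LDHB ran from -0.76 to -0.66, and with single libraries left out from -0.70 to -0.69.

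LDHA (ENSG00000134333.14, chr11:18394560-18408425, plus strand) encodes the M subunit. It stood at 550.0 and 546 CPM in 2-D and at 575 and 571 CPM in 3-D. Both 3-D libraries were a little higher, with no overlap, but the log2 fold change of 0.065 (SE 0.029, 95% interval 0.002 to 0.13) did not pass the test (adjusted p = 0.222) and was 0.001 (adjusted p = 0.994) with library size only. The interval of LDHA leaves room for a rise of this small size and not for a fall like that of LDHB.

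The shift can be stated inside each library, free of any scaling between libraries. Per kilobase of merged exon, LDHB made up 24.8% and 25.0% of the sum of LDHA and LDHB in 2-D and 16.3% and 16.5% in 3-D. Replicates differed by 0.2 points or less, and the mean share dropped by 8.5 points, from 24.9% to 16.4%. In raw counts, without division by length, LDHB held 14.0% (95% Wilson interval 13.6% to 14.5%) and 14.2% (13.7% to 14.7%) in 2-D. It held 8.80% (8.32% to 9.30%) and 8.90% (8.39% to 9.45%) in 3-D, and these intervals cover counting error only. The per-kilobase level of LDHB was 0.330 and 0.333 times that of LDHA in 2-D and 0.195 and 0.197 times in 3-D.

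**Figure D2:**
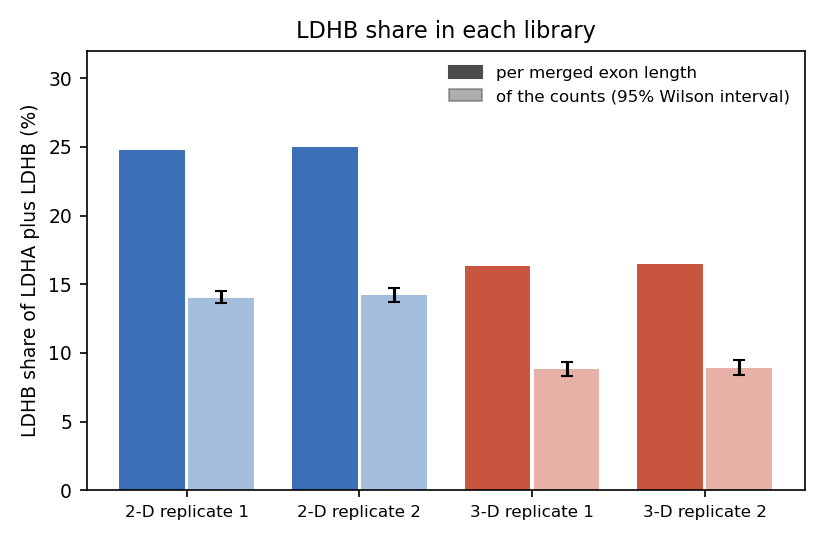
Share of LDHB in the sum of LDHA and LDHB for each library, in percent, from length-scaled levels (dark bars) and from raw counts (pale bars, with 95% Wilson intervals). The dark bars stand at 24.8% and 25.0% in 2-D and at 16.3% and 16.5% in 3-D.

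What else the annotation places at LDHB bears on its counts. Of the 2983 exon bases of LDHB, 997 (33.4%) are shared on the same strand with the readthrough gene ENSG00000285854, and reads in them could be left uncounted in all 4 libraries. The readthrough gene itself had 5 and 2 counts in 2-D and 1 and 3 counts in 3-D, too few for a test. LDHA shares no exon base with another gene. With the 1986 unshared bases as the length of LDHB, a choice made after seeing the data, its share was 33.1% and 33.4% in 2-D and 22.6% and 22.9% in 3-D. Another length multiplies LDHB by the same factor in all 4 libraries. It leaves the fold between conditions of the LDHB to LDHA ratio as it was, but moves both the level of the share and its change in points. Processed pseudogenes, which are retrocopies of mature transcripts, can also take reads. LDHBP2 on chromosome X matched the longest LDHB transcript at 93.9% identity and had 62 and 64 counts in 2-D and 26 and 12 in 3-D, with a log2 fold change of -0.97 (adjusted p = 0.062, edgeR). These counts are few beside those of LDHB and were lower in the same libraries. The 6 LDHA pseudogenes held 103 counts in all 4 libraries together. LDHAP4, which aligned at 95.1% identity, held 0, and neither of the 2 that could be tested passed. Of all 14 pseudogenes and antisense genes named after the 10 genes, 6 were tested and 0 passed by edgeR's quasi-likelihood test, with 5 at an unadjusted p below 0.05 and 2 called lower by the likelihood ratio test (LDHBP2 and LDHAP3).

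No tested gene close to LDHB passed the test. Within 500 kb of its RefSeq start on chromosome 12, which lies inside the longer GENCODE gene given above, 20 other genes have their lower coordinate, 8 passed the filter on low counts and 0 of the 8 passed edgeR's quasi-likelihood test, with 1 at an unadjusted p below 0.05. The likelihood ratio test called 0 of the 8, and DESeq2 called 0 of the 5 to which it gave an adjusted p. Their log2 fold changes ran from -0.26 (IAPP, SE 0.331, at about 1 CPM) to 0.03 (PYROXD1, SE 0.064). The lowest adjusted p, 0.179, belonged to SLCO1A2, an organic anion transporter, with a log2 fold change of -0.18 (SE 0.073). The well-measured neighbors RECQL, a DNA helicase at 70.8 to 72.7 CPM, and CMAS, an enzyme of sialic acid activation at 29.4 to 29.8 CPM, had log2 fold changes of -0.01 (SE 0.036) and -0.003 (SE 0.062).

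**Figure D3:**
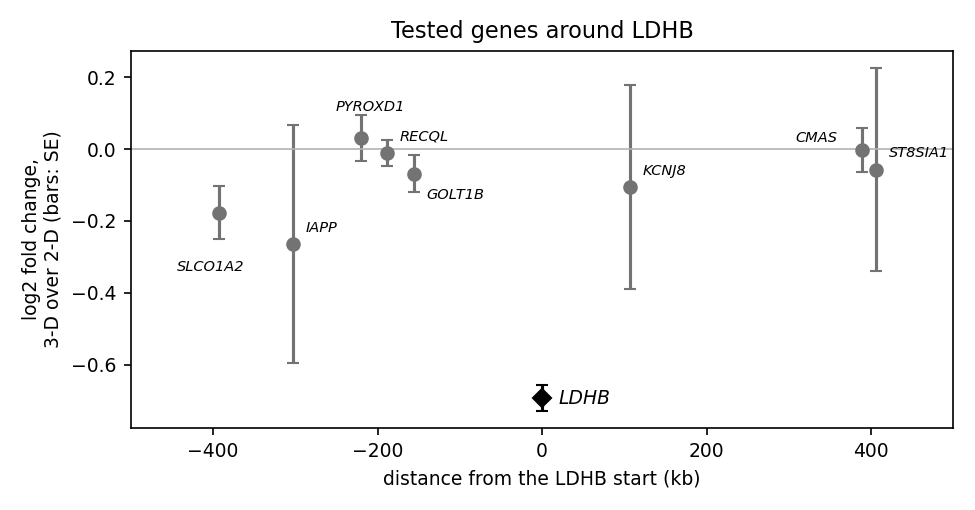
Log2 fold change, 3-D over 2-D, of the 8 tested genes around LDHB (grey, bars are SEs) against their distance from its RefSeq start in kb, with LDHB as a black diamond. The neighbors lie between -0.26 and 0.03 and LDHB at -0.69.

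Over the 4 libraries, the 5 genes whose centred log2 profile lay nearest to that of LDHB, among 9257 protein-coding genes with a mean of at least 10 CPM, were SLC4A5, UBL5, H4C2, COX8A and RPL39. Their Euclidean distances ran from 0.086 to 0.142, and each was lower in 3-D because the measure selects for that. COX8A, a subunit of cytochrome c oxidase, stood at 32.1 and 33.9 CPM in 2-D and at 21.5 and 22.8 CPM in 3-D. RPL39, a protein of the large ribosomal subunit, went from 576 and 566 CPM to 394 and 353 CPM. SLC4A5, a sodium bicarbonate cotransporter and the nearest of the 5, had a log2 fold change of -0.66 (SE 0.067). H4C2 is 1 of several histone H4 genes with similar sequences, so its counts are uncertain.

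The lactate carriers did not pass the test in either direction. SLC16A1 (ENSG00000155380.11, chr1:112911847-112957593, minus strand) stood at 583 and 592 CPM in 2-D and at 564 and 555 CPM in 3-D. Both 3-D libraries were slightly lower without overlap, and the log2 fold change was -0.07 (SE 0.03, 95% interval -0.135 to -0.006, adjusted p = 0.188, but 0.0128 with library size only). Its antisense RNA SLC16A1-AS1, which covers 3.64% of its exon bases, had a log2 fold change of -0.25 (adjusted p = 0.079). SLC16A3 (ENSG00000141526.16, chr17:82217934-82261129, plus strand), whose product MCT4 is the export carrier of strongly glycolytic cells, was at the low end of the measured range. It had 142 counts in each 2-D library and 107 in each 3-D library, or 4.12 and 4.61 CPM against 5.21 and 5.97 CPM. All 3-D values were higher than all 2-D values, yet the log2 fold change of 0.35 had an SE of 0.141 and a 95% interval from 0.05 to 0.66 (adjusted p = 0.165). At this depth the difference could not be told from the spread between libraries once adjusted over all tested genes, and 5.22% of the SLC16A3 exon bases lie opposite those of CSNK1D.

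Basigin (BSG), the chaperone that brings both carriers to the cell surface, was the member of the transport list that passed. It measured 304 and 306 CPM in 2-D and 329 and 347 CPM in 3-D. Both 3-D libraries were higher, with a log2 fold change of 0.15 (SE 0.033, adjusted p = 0.0158). The call of BSG was lost with the likelihood ratio test (adjusted p = 0.102), library size only (0.161), offsets for length and GC content (0.0801) and without 2-D replicate 1 (0.168) or 2-D replicate 2 (0.133). The pyruvate carrier SLC16A7 had a log2 fold change of -0.20 (SE 0.081, adjusted p = 0.179) and SLC16A8 had the highest value of the list at 0.34 (SE 0.246) from about 1 CPM.

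The mitochondrial pyruvate carrier was expressed at a low level. MPC1 (ENSG00000060762.19, chr6:166364919-166383013, minus strand) measured 8.28 and 8.47 CPM in 2-D and 8.52 and 10.3 CPM in 3-D. The 3-D libraries of MPC1 were higher but spread more widely than the gap between conditions, and the log2 fold change of 0.16 (SE 0.113) had an adjusted p of 0.472. MPC2 (ENSG00000143158.11, chr1:167916675-167937072, minus strand) measured 19.1 and 17.4 CPM in 2-D and 18.9 and 19.5 CPM in 3-D, with a log2 fold change of 0.07 (SE 0.079, adjusted p = 0.692). The MPC2 libraries overlapped between the conditions, and 21.8% of its exon bases lie opposite those of DCAF6. The ratio of MPC1 to MPC2 counts also overlapped, with 0.433 and 0.487 in 2-D and 0.451 and 0.527 in 3-D.

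Of the pyruvate dehydrogenase subunits, PDHA1 rose in 3-D. PDHA1 (ENSG00000131828.14, chrX:19343893-19361718, plus strand) encodes the E1 alpha subunit, which carries the sites that the kinases phosphorylate. It stood at 191 and 189 CPM in 2-D and at 216 and 213 CPM in 3-D. The replicates lay within about 3 CPM of each other while the conditions lay more than 20 CPM apart. The fold was 1.13, with a log2 fold change of 0.175 (SE 0.03, 95% interval 0.11 to 0.239, adjusted p = 0.00326). Without 2-D replicate 2 the log2 fold change was 0.166 but the adjusted p was 0.0774, and without 2-D replicate 1 they were 0.183 and 0.0424. With library size only the log2 fold change was 0.11 (adjusted p = 0.0334). Exons of PDHA1 overlap those of MAP3K15 on the other strand over 19.3% of its bases, and MAP3K15 had a log2 fold change of 0.005 (adjusted p = 0.981).

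PDHB (ENSG00000168291.13, chr3:58427630-58433857, minus strand), the E1 beta subunit that pairs with PDHA1, stood at 146 and 141 CPM in 2-D and at 138 and 137 CPM in 3-D. The 3-D libraries were just below the 2-D libraries, with a log2 fold change of -0.06 (SE 0.031, adjusted p = 0.299, but -0.125 and 0.024 with library size only). An antisense RNA over 7.63% of the PDHB exon bases, ENSG00000272182, passed as lower with a log2 fold change of -0.26 (adjusted p = 0.027), and because the strand setting of the counting is not given, reads of the pair cannot be told apart. DLAT (ENSG00000150768.15, chr11:112025408-112064404, plus strand), the E2 subunit that makes acetyl-CoA, measured 118 and 121 CPM in 2-D and 120.0 and 123 CPM in 3-D. The DLAT libraries overlapped, and its log2 fold change was 0.026 (SE 0.031, adjusted p = 0.713). That of DLAT turned to -0.039 with library size only, and 13.3% of its exon bases lie opposite those of PIH1D2. Of the other subunits, DLD (E3) had a log2 fold change of -0.03 (SE 0.029) and PDHX of 0.04 (SE 0.042), and PDHA2, the testis form, had 0 counts in every library.

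PDHA1 and PDHB make up E1 together, so their ratio was formed within each library. There were 1.31 and 1.34 PDHA1 counts per PDHB count in 2-D and 1.57 and 1.55 in 3-D. The ratio was 1.18 times as high in 3-D without overlap, but the exact two-sided permutation test of 2 against 2 libraries cannot give a p below 0.333 (adjusted 0.466 over the 7 ratios formed). PDHA1 over DLAT behaved alike, at 1.62 and 1.56 in 2-D and 1.80 and 1.73 in 3-D.

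**Figure D4:**
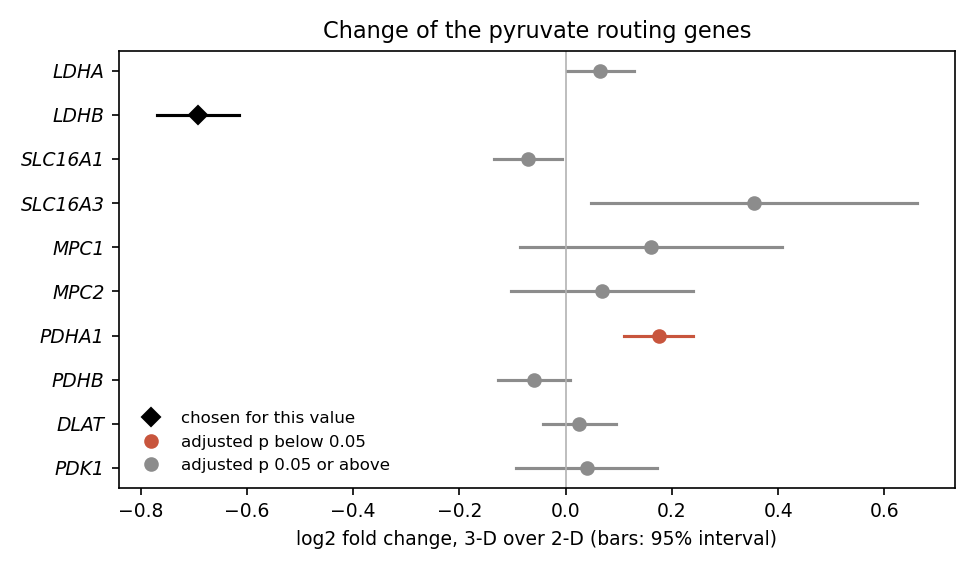
Log2 fold change, 3-D over 2-D, of the 10 genes with 95% intervals from edgeR. LDHB (black diamond, picked for this value) lies at -0.69, PDHA1 (red) at 0.175 passed the test, and the other 8 genes (grey) did not.

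PDK1 (ENSG00000152256.13, chr2:172555373-172608669, plus strand), a kinase that switches the complex off, measured 34.9 and 34.4 CPM in 2-D and 37.0 and 34.3 CPM in 3-D. The libraries overlapped, and the log2 fold change of 0.04 (SE 0.061, adjusted p = 0.779) turned to -0.024 with library size only and to -0.019 without 3-D replicate 1. The antisense RNA PDK1-AS1, over 3.0% of the PDK1 exon bases, had a log2 fold change of 0.28 (adjusted p = 0.139). The kinase with the higher level was PDK3, at 148 and 152 CPM in 2-D and 132 and 133 CPM in 3-D. It fell in 3-D, with a log2 fold change of -0.18 (SE 0.031, adjusted p = 0.00336, but 0.0786 without 2-D replicate 2). PDK2 had a log2 fold change of 0.29 (SE 0.138, adjusted p = 0.255), with 38.6% of its exon bases shared with genes on the other strand, and PDK4 stayed below 0.2 CPM. PDK1 counts per PDK3 count were 0.237 and 0.226 in 2-D and 0.280 and 0.258 in 3-D. The ratio was higher in both 3-D libraries, and its exact permutation test, like that of PDHA1 over PDHB, cannot pass with 2 libraries against 2. The phosphatases that switch the complex back on did not pass, with log2 fold changes of -0.13 (SE 0.051) for PDP2 and -0.03 (SE 0.055) for PDP1.

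Ranked by CPM per kilobase of merged exon and averaged over the 4 libraries, the levels of the 10 genes spanned from 93.0 for LDHA to 0.54 for SLC16A3. SLC16A1 followed LDHA at 90.3, and the ranges of this pair overlapped in 2-D but not in 3-D. PDHA1 came next at 40.8, then PDHB at 29.8 and LDHB at 24.4. PDHB and LDHB could not be separated in 2-D, where their ranges overlapped, whereas in 3-D LDHB lay below PDHB. DLAT followed at 15.9, MPC2 at 7.09, MPC1 at 5.77 and PDK1 at 2.37, and each of these was separated from its neighbors in both conditions. With the longest transcript as the length, PDHB and LDHB changed places, as did MPC2 and MPC1.

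Beyond the 10 genes, 42 genes of 7 lists around pyruvate were followed, of which 37 were tested. Of these, 2 passed as higher (BSG and PKM) and 3 as lower (PDK3, MDH1 and SLC25A13), or 13.5% against 7.90% of all tested genes, with a median log2 fold change of -0.02. Without 2-D replicate 2 the count was 2. The relatives of lactate dehydrogenase were few: LDHD, which acts on D-lactate, measured 6.71 to 7.87 CPM, and LDHC, LDHAL6A and LDHAL6B stayed near 1 CPM or below. Of these 4 genes 0 passed, with log2 fold changes from -0.16 (LDHAL6A) to 0.01 (LDHD), adjusted p from 0.845 to 0.987 by edgeR, and 0 at an unadjusted p below 0.05 or by the likelihood ratio test. The list of cofactor supply genes held none that passed edgeR's quasi-likelihood or likelihood ratio test or reached an unadjusted p below 0.05, and its lowest log2 fold change was -0.25 (LIPT2, SE 0.184, adjusted p = 0.493).

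PKM, the pyruvate kinase that makes the pyruvate, rose in 3-D. It stood at 635 and 630 CPM in 2-D and at 710 and 718 CPM in 3-D, with a log2 fold change of 0.17 (SE 0.029, adjusted p = 0.00318, but 0.0644 without 2-D replicate 2). The ratio of PKM to PDHA1 overlapped between the conditions, with 3.33 and 3.34 PKM counts per PDHA1 count in 2-D and 3.29 and 3.38 in 3-D. The lowest value among the other pyruvate enzymes was that of the alanine aminotransferase GPT at -0.60 (SE 0.317, adjusted p = 0.309) from about 1 CPM, and PKLR and PCK1 had 0 counts in every library. GPT2, the mitochondrial form, measured 92.6 and 87.5 CPM in 2-D and 84.5 and 80.8 CPM in 3-D, with a log2 fold change of -0.12 (adjusted p = 0.0778).

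Lactate dehydrogenase draws on the same cytosolic NADH as the shuttles that carry reducing equivalents into mitochondria. Of their 9 tested genes, 2 of the malate and aspartate shuttle fell in 3-D, against 3.36% of all tested genes called lower. MDH1, the cytosolic malate dehydrogenase, went from 130 and 135 CPM to 113 and 114 CPM, with a log2 fold change of -0.22 (SE 0.031, adjusted p = 0.00106). SLC25A13, the aspartate and glutamate carrier citrin, went from 117 and 115 CPM to 102 and 99.2 CPM, with a log2 fold change of -0.20 (SE 0.032, adjusted p = 0.00183). Both genes passed in every alternative fit and with each library left out. Mitochondrial MDH2 stood at 133 to 137 CPM in all libraries, with a log2 fold change of 0.025 (SE 0.029), and GPD1 was too low to test.

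Hypoxia-inducible factor is known to raise LDHA, PDK1 and SLC16A3, so 23 of its other known targets were listed. By edgeR's quasi-likelihood test 0 passed as higher and 2 as lower, or 8.70% against 7.90% of all tested genes, a share near that background, with a median log2 fold change of 0.01. At an unadjusted p below 0.05, 2 were higher and 3 lower. The likelihood ratio test called 0 of the 23 higher, and DESeq2 called 0 higher of the 14 to which it gave an adjusted p. BNIP3, a mitophagy receptor, went from 71.8 and 72.2 CPM to 59.9 and 62.8 CPM, with a log2 fold change of -0.23 (SE 0.039, adjusted p = 0.003). ALDOA, a glycolytic aldolase, was the lowest of the list at -0.85 (SE 0.182, adjusted p = 0.0131), but 42.8% of its exon bases are shared on the same strand with another gene and its level is uncertain. Leaving out 3-D replicate 1 moved ALDOA to -1.289, leaving out 3-D replicate 2 moved it to -0.538, and DESeq2 gave it no adjusted p. PGK1, SLC2A1, VEGFA and ENO1 did not pass, with log2 fold changes of -0.06, 0.07, -0.05 and 0.01. CA9 had the highest value at 0.76, with an SE of 0.578 and less than 1 CPM in every library.

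**Figure D5:**
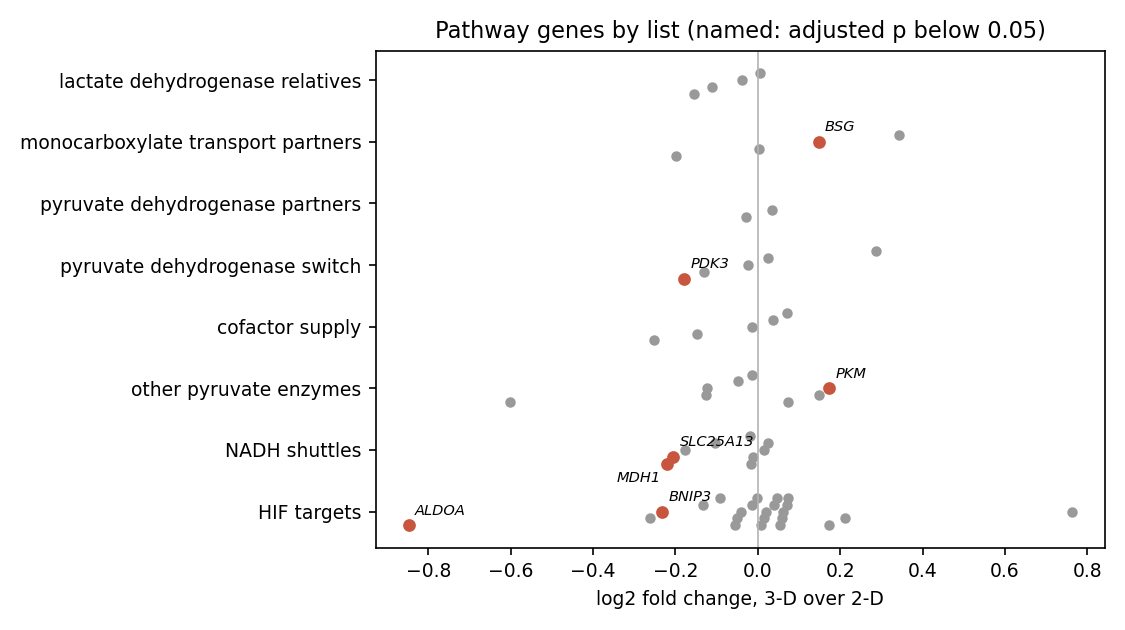
Log2 fold change, 3-D over 2-D, of each tested gene of 7 lists around pyruvate and of targets of hypoxia-inducible factor. The 7 genes with an adjusted p below 0.05 are red and named, from ALDOA at -0.85 to PKM at 0.17, and most of the others lie near 0.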

How the data were processed

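RNA of 2-D and 3-D grown Elf1 cells was measured in 4 libraries. The authors depleted ribosomal RNA, trimmed reads with Trim Galore 0.6.3, mapped them to hg38 with HISAT2 2.1.0 and assigned them to genes with featureCounts 1.6.4 (versions per the labels). The deposited values used here are whole-number counts per gene without normalization. The strand and multi-mapping settings are not given in the sources used here. A deposited table of normalized values with the authors' fold changes and p-values was not used.

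Counts were tested with edgeR 4.0.16 in R 4.3.3 (TMM, filterByExpr, quasi-likelihood test, condition alone, Benjamini-Hochberg adjustment over 22555 genes), after a check on simulated counts. In that check, 50 genes were changed at each of 4 log2 fold changes. The test called 84% of them at 0.5, 80% at -0.5 and 100% at 1 and at -1. It also made 25 false calls among the unchanged genes. These were a larger share of all its calls than the threshold on adjusted p allows on average. Some of the calls given here may therefore be false, and their share may exceed that threshold. P-values rest on the spread between 2 replicates per condition, with the spread of each gene drawn toward that of the other tested genes. The study states that the replicates are independent. An SE is the log2 fold change over the root of F. Counts of replicates differed by more than sampling noise (chi-square over degrees of freedom 2.27 in 2-D and 3.92 in 3-D). Identifiers were matched to GENCODE release 44 for 60295 of 60564 genes, and the 269 others held 0.122% of the counts. The study's methods name an earlier GENCODE release for the counting, so lengths and shared exons given here may differ from those behind the counts. Copies were found by aligning the longest transcripts of the 10 genes to hg38 with minimap2 2.31-r1302, keeping matches over at least 50% of a transcript.

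The genes, lists and naming rules were chosen with earlier results of these data known. Named were the 10 genes, list genes that passed or were extreme, pseudogenes, antisense and readthrough genes, genes within 500 kb of LDHB and the 5 genes nearest to LDHB in profile, except for 1 list gene that is not reported here. Alternatives were the likelihood ratio test, DESeq2 1.42.0 and its size factors, library size only, library sizes without mitochondrial genes, other filters, a replicate block, offsets for length and GC content, and each library left out.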

Additional observations from a re-analysis of the deposited data

How the results depend on the processing

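PDHA1 kept its direction in every fit (log2 fold change 0.11 with library size only, 0.163 to 0.184 with single libraries left out) and lost its call only without 2-D replicate 2 (0.166). Genes of the 10 with an adjusted p below 0.05, LDHB among them by its choice and not as a test result, numbered 2 in the fit reported, 4 with library size only, which added PDHB (-0.125) and SLC16A1 (-0.135), and 1 to 2 with a library left out. DLAT reversed to -0.039 with library size only, and PDK1 to -0.024 there and to -0.019 without 3-D replicate 1 (range with libraries left out -0.019 to 0.093). Genes called over the whole table numbered 1139 with the likelihood ratio test (651 higher, 488 lower) and 795 with DESeq2 (511 higher, 284 lower). With library size only, 514 were higher and 1879 lower. Leaving out a library gave 792 to 2390 (448 to 1324 higher, 326 to 1066 lower), with the lowest totals, 846 and 792, without 2-D replicate 1 and without 2-D replicate 2. Pathway genes called ran from 2 to 7, and the cause was not tested. The change of the LDHB share was -5.25 points in counts, -6.90 with the longest transcript and -10.5 with unshared exons, where length alone sets the difference.

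Samples with the same replicate number did not deviate together across genes as a whole (correlation -0.0458 over 10211 genes). Such a correlation can miss a link that touches few genes, so it cannot decide whether the replicates were paired. A replicate block gave 2167 calls (1223 higher, 944 lower) and 2328 with offsets for length and GC content, and PDHA1 passed in both. The alternative without mitochondrial genes gives no value for those genes. In a fit that leaves out a library, the lone library of a condition is assumed to vary like the other condition. SLC16A3 and MPC1 had the largest SEs of the 10 genes, 0.141 and 0.113.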
